A study of Homo sapiens with 6 samples.

Results

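Enzymes that shorten fatty acids by beta-oxidation, in mitochondria and in peroxisomes, were followed as 42 listed genes in MDA-MB-231 cells, a human triple-negative breast cancer line of mesenchymal character. Members were found in the deposited gene table by symbol, all 42 of them among 63241 genes, and 41 reached the minimum for testing, 1 TPM averaged across both groups. TPM gives a gene's transcripts, corrected for length, as a share of the library. Of the 6 libraries, 3 came from cells exposed to ArA at 40 µM and cultured for 24 h, and 3 from cells without treatment, with no vehicle named. The study's title gives the fatty acid as arachidonic acid. The line is a single established cell line, and no gene was altered in either group. MLYCD, with a mean of 0.320 TPM, was the member below the minimum, and the lowest members above it were ACADSB at 2.53 TPM and EHHADH at 2.57 TPM.

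Each turn of beta-oxidation removes a short unit from the chain by an oxidation, a hydration, a second oxidation and a thiolytic cleavage. Mitochondria take most long-chain fatty acids and pass the electrons to the respiratory chain, while peroxisomes start on very long, branched and other unusual chains and hand electrons to oxygen. Arachidonic acid carries several double bonds, and such chains need auxiliary isomerases and reductases before the ordinary cycle can go on. Many genes of both pathways are known targets of the fatty acid receptors of the PPAR family.

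Of 5 markers listed as present in the line, VIM lay between 1335 and 1515 TPM and CD44 between 304 and 376 TPM. AXL lay between 260 and 349 TPM and CAV1 between 80.0 and 119 TPM. ZEB1 lay far lower, between 2.73 and 5.45 TPM. Of 5 luminal and epithelial markers listed as low or absent in it, PGR was listed at 0 in all 6 libraries and ESR1 and CDH1 stayed at or under 0.170 TPM, while EPCAM lay between 3.17 and 6.92 TPM and GATA3 between 3.07 and 4.36 TPM. Summed markers of blood cells stayed between 0.330 and 0.520 TPM in ArA libraries and between 0.260 and 0.480 TPM in control libraries. The fibroblast and muscle list, with MYH7 listed at 0, summed to 1.67 to 2.60 TPM in ArA and 0.670 to 1.13 TPM in control libraries, and its part in the results was not tested. Mitochondrially encoded transcripts took 32.1, 28.0 and 26.9% of ArA replicates 1, 2 and 3, against 32.9, 32.0 and 31.6% of control replicates 1, 2 and 3. A lower share of these transcripts raises the TPM of all others. ArA replicate 1 and control replicate 2 stood apart from the other 4 libraries: their deviations from the gene means correlated with transcript GC content at Pearson r = 0.41 and 0.45 across genes, while the other 4 lay between -0.40 and -0.10. Several results that rest on these libraries are given with and without them. Nothing in the labels says that replicates were separate cultures, so p-values measure only how far these libraries scatter, and that scatter may be technical.

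Start sites of the 2 subunit genes of the mitochondrial trifunctional protein lie head to head on chromosome 2, and most of the stretch between them, up to the HADHB start, is shown because both genes lay higher in ArA libraries. In RefSeq on GRCh38.p14 the start sites of HADHB and HADHA are 307 bases apart, and 194 bases of the windows reaching 250 bases upstream of each are the same DNA. The window of ACAA2, the member with the largest log2 fold change among the 33 of 42 members with a RefSeq window, is shown beside it. Capitals mark matches to GGGCGG, a GC box, on either strand. The HADHB window is on the forward strand at chr2:26244689-26244938, the ACAA2 window on the reverse strand at chr18:49813534-49813783.
HADHB: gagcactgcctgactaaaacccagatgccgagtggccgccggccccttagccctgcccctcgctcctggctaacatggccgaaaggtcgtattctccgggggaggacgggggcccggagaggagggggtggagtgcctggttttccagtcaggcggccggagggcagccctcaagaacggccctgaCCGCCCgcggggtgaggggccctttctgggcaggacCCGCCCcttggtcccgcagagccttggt
ACAA2: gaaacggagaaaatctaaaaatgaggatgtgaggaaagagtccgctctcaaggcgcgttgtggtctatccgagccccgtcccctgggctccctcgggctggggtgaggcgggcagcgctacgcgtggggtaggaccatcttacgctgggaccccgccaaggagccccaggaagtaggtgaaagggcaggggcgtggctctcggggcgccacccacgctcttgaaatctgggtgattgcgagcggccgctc
The HADHB window held 2 GC boxes and the ACAA2 window 0, with a GC content of 69.2 and 63.6%. A GC box stood in a window of 28 of the 33 members, and in 42.6% of all 35116 windows of the same length (73.3% of the members' 45 windows). The direct repeat that PPAR receptors bind, searched on both strands as AGGTCA, any 1 base and AGGTCA again, was in 0 of the members' windows and in 0.0171% of all windows, and these letters may stand outside the windows. With only 6 of 35116 windows holding this exact repeat, its absence from 45 windows gives no information on PPAR binding.

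No member passed the test over all genes. In limma on log2(TPM + 1), with Benjamini-Hochberg adjustment over 12999 genes, 0 of 41 members had an adjusted p under 0.05 in either direction, where 0.0154% of all tested genes passed as higher and 0.00769% as lower in ArA. At an unadjusted p under 0.05, 3 of 41 members were higher and 0 lower, or 7.32% against 2.28% of all genes higher and 0.508% lower. In 8 of 41 members (19.5%) all 3 ArA values lay above all 3 control values, against 6.84% of all genes. In 0 members did all ArA values lie below the controls, against 1.21% of all genes. The 8 were ECH1, ACAA2, ACADVL, HADHA, HADHB, ACAD9, ACADS and ACOT1, of which 6 are mitochondrial, ECH1 is known from both organelles and ACOT1 is cytosolic. Of 13 peroxisomal members, 0 separated the groups. At the 6.84% share of all genes, a count of 0 among so few genes does not set them apart from other genes. In cultured cells measured in bulk, more cells that express a gene and more of its RNA per cell cannot be told apart.

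**Figure D1:**
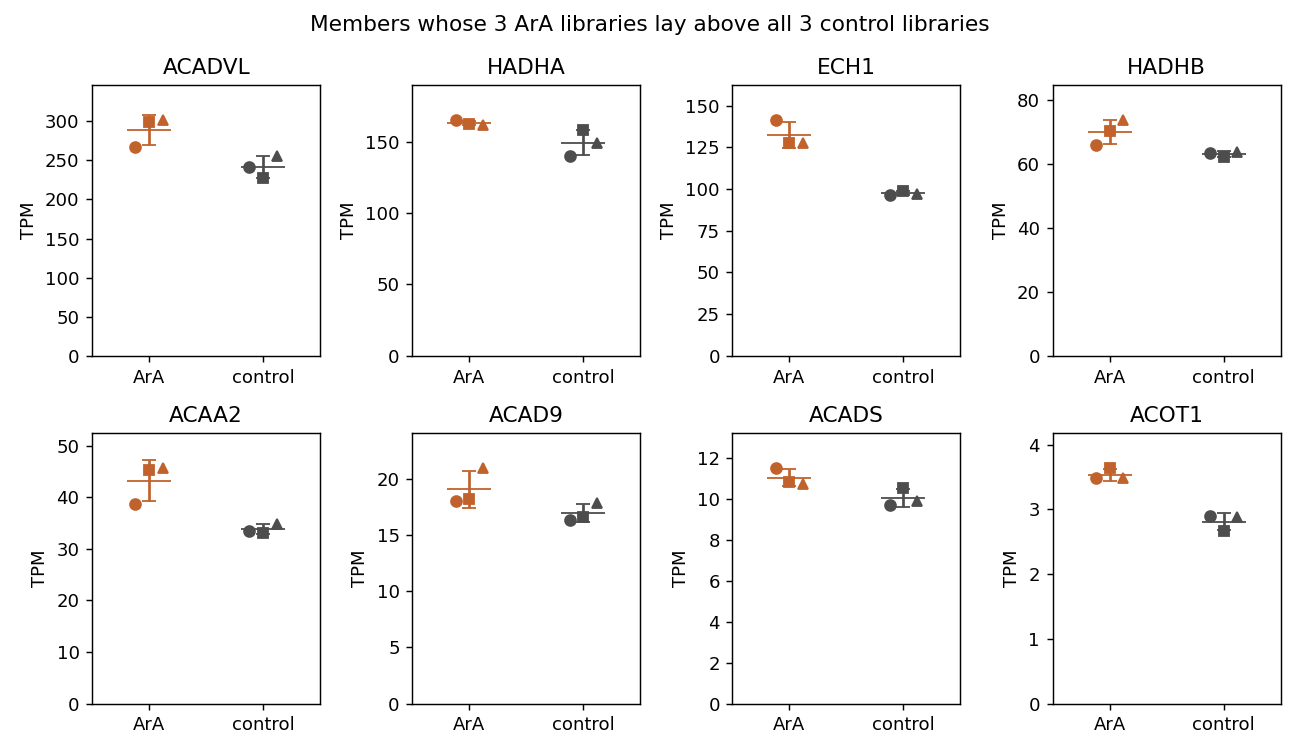
TPM of the 8 members whose ArA libraries all lay above the control libraries; circle, square and triangle are replicates 1, 2 and 3, and horizontal lines with bars give the mean and SD (n = 3 each). ECH1 has the widest gap, with 128 to 141 TPM in ArA and 96.4 to 98.8 TPM in control libraries.

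The shift of the list as a whole shrank under other scalings, along with that of all genes. Under the authors' TPM, 35 of 41 members had a positive log2 fold change, against 68.9% of all genes, and the median was 0.09 against 0.06 for all genes. Once TPM were rescaled without mitochondrially encoded genes, 23 of 41 members were positive, against 49.3% of all genes. Median-of-ratios scaling also left 23 positive (51.0% of all genes), quantile normalization 25 (51.8%) and a correction for GC content 26 (53.4%). The member median stayed positive under each of these, at 0.03 under the 3 other scalings and 0.04 after GC correction. That of all genes then lay between -0.0021 and 0.0098. ECH1 and ACAA2 separated the groups under the 3 other scalings and after GC correction, while HADHA, ACAD9 and ACADS separated them under none of these 4.

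**Figure D2:**
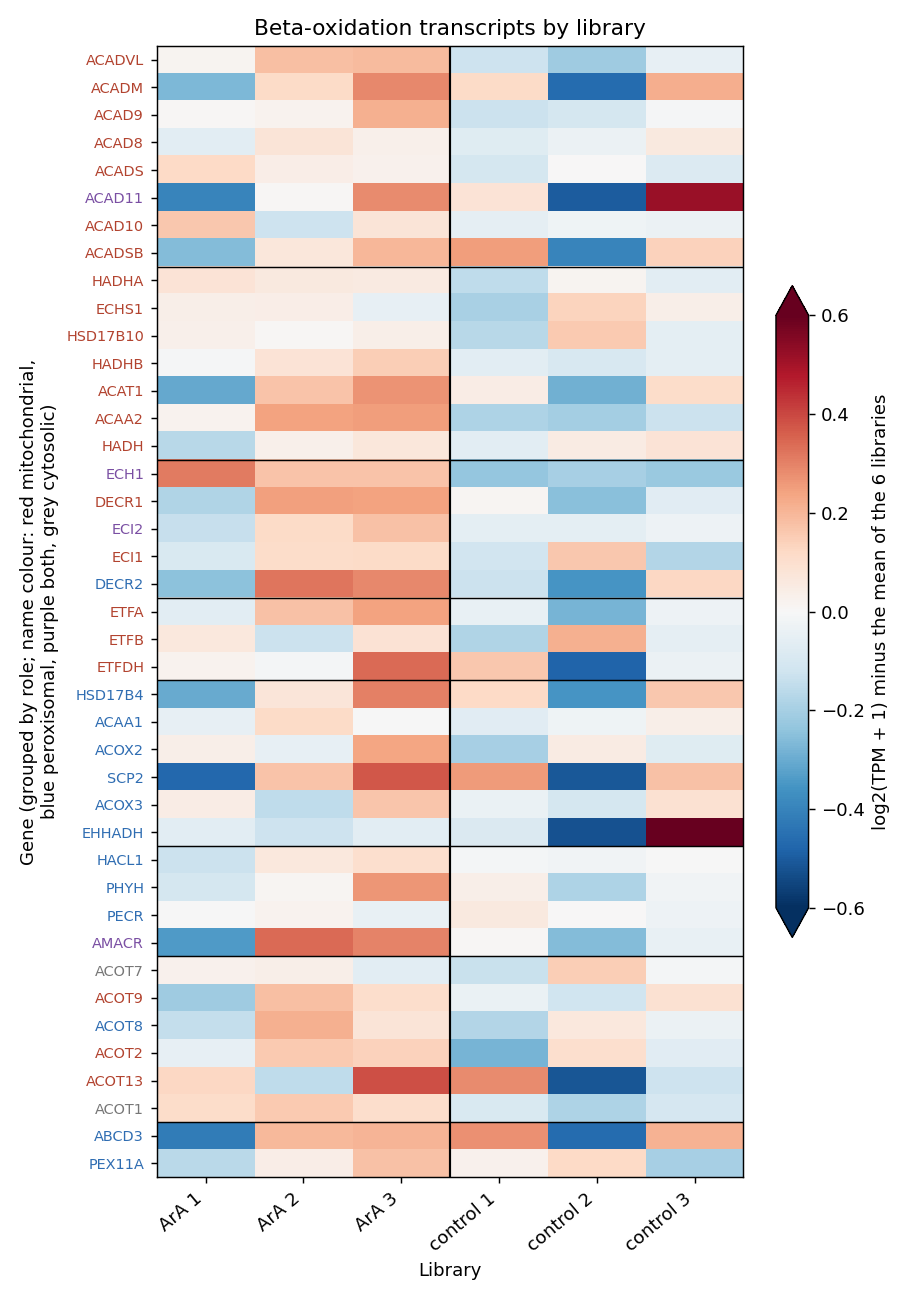
Level of each of 41 members in each library as log2(TPM + 1) less its mean over the 6 libraries, with ArA libraries left of the line and genes grouped by role and ordered by level. ECH1 and ACAA2 are above their mean in each ArA library, while SCP2, ABCD3 and ACADM are low in ArA 1 and control 2 alike; differences beyond 0.6 in size share the end colours.

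Acyl-CoA dehydrogenases, which carry out the opening oxidation in mitochondria, were led by ACADVL, the enzyme for very long chains. ACADVL had 267, 299 and 301 TPM in ArA replicates 1, 2 and 3, against 242, 227 and 255 TPM in control replicates 1, 2 and 3. It had the highest mean of all members, and its 2 groups did not overlap. Its log2 fold change was 0.26 (SE 0.09, limma adjusted p = 0.999, unadjusted p = 0.0188), its rank by p was 129 of 12999, and the value was 0.27 without control replicate 2 and ArA replicate 1. GENCODE v29 on hg38 places ACADVL (ENSG00000072778) at chr17:7217125-7225273, forward strand, and its exons share 281 bases with DLG4 on the other strand. Whether counting used strand is not given in the sources used here.

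ACADS, for short chains, had 11.5, 10.9 and 10.8 TPM in ArA libraries and 9.73, 10.6 and 9.91 TPM in control libraries, which do not overlap by a narrow margin. ACAD9, needed to assemble respiratory complex I, had 18.0, 18.2 and 21.0 TPM in ArA libraries and 16.3, 16.6 and 17.9 TPM in control libraries. Its level is uncertain, since 1346 of its 4327 exonic bases overlap KIAA1257 on the other strand. Both genes had an unadjusted limma p above the threshold, at 0.280 and 0.175, with log2 fold changes of 0.12 (SE 0.10) and 0.16 (SE 0.11). The medium-chain enzyme ACADM had 32.5, 42.8 and 48.3 TPM in ArA libraries and 42.7, 28.3 and 45.9 TPM in control libraries. Its low values were those of ArA replicate 1 and control replicate 2, and its groups overlapped widely. Without these libraries its log2 fold change was 0.04. The others overlapped as well: ACADSB and ACAD8, which act in the breakdown of branched-chain amino acids, averaged 2.52 ± 0.557 and 15.6 ± 0.829 TPM in ArA and 2.55 ± 0.792 and 15.2 ± 0.780 TPM in control libraries (SD, n = 3 each). ACAD10 averaged 5.94 ± 0.690 TPM in ArA and 5.56 ± 0.0624 TPM in control libraries, and ACAD11 6.30 ± 1.69 and 6.83 ± 2.66 TPM (SD, n = 3 each). The level of ACAD11 is uncertain, since much of its transcript sequence is not unique to it.

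Both subunits of the trifunctional protein, which joins hydratase, dehydrogenase and thiolase activities for long chains at the inner membrane, lay higher in ArA libraries by small amounts. The alpha subunit HADHA had 165, 163 and 162 TPM in ArA libraries, against 140.2, 158 and 149 TPM in control libraries. The beta subunit HADHB had 66.1, 70.4 and 73.7 TPM in ArA libraries, against 63.5, 62.1 and 63.8 TPM in control libraries. Neither gene overlapped between groups, and neither passed the test, with log2 fold changes of 0.13 (SE 0.08) for HADHA and 0.15 (SE 0.08) for HADHB and a limma adjusted p of 0.999 each. The exact 2-sided permutation test gave p = 0.1 for each of the 8 separated members, the smallest that 3 against 3 libraries allow. Full separation always gives this value, so the test adds nothing to the separation itself. HADHA (ENSG00000084754) is at chr2:26190635-26244726, reverse strand, and HADHB (ENSG00000138029) at chr2:26243170-26290468, forward strand. Their GENCODE spans overlap at the head-to-head starts whose sequence is given above.

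ACAA2, the thiolase that releases acetyl-CoA in the mitochondrial matrix, had 38.8, 45.3 and 45.7 TPM in ArA libraries, against 33.5, 33.1 and 34.9 TPM in control libraries. The lowest ArA value was that of replicate 1, and it still lay above each control. On the log2 scale the groups differed by 0.34 (SE 0.10, 95% interval 0.11 to 0.57), with a limma adjusted p of 0.999 (unadjusted p = 0.0101, rank 78 of all genes). Between ArA replicate 1 and control replicate 2 the log2 difference was 0.22, and among the other 4 libraries it was 0.40. ACAA2 (ENSG00000167315) is at chr18:49782167-49813960, reverse strand, and 20.6% of its 50-base stretches recur in other genes.

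The remaining matrix enzymes of the cycle did not separate the groups, where 6.84% of all genes were separated as higher. ECHS1, the short-chain hydratase, averaged 126 ± 4.44 TPM in ArA and 125 ± 14.4 TPM in control libraries (SD, n = 3 each), a log2 fold change of 0.02 with a 95% interval of -0.23 to 0.26. HADH, the short-chain dehydrogenase, averaged 16.4 ± 1.49 TPM in ArA and 17.0 ± 0.935 TPM in control libraries and was the 1 mitochondrial member with a negative log2 fold change. HSD17B10, which also serves in isoleucine breakdown and mitochondrial tRNA processing, averaged 73.7 ± 0.822 and 71.7 ± 8.39 TPM. ACAT1, the thiolase of ketone bodies and isoleucine, averaged 50.1 ± 10.3 TPM in ArA and 46.7 ± 6.80 TPM in control libraries (SD, n = 3 each).

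The 5 auxiliary enzymes of unsaturated chains had a median log2 fold change of 0.21, against 0.06 for all genes. All 5 were positive under the authors' TPM, as were 68.9% of all genes. ECH1, the dienoyl-CoA isomerase found in mitochondria and peroxisomes, had 141, 128 and 128 TPM in ArA libraries, against 96.4, 98.8 and 97.0 TPM in control libraries. The control libraries lay within 2.40 TPM of one another, and the lowest ArA library lay 28.9 TPM above the highest control. On the log2 scale the groups differed by 0.44 (SE 0.08, 95% interval 0.25 to 0.62), with a limma adjusted p of 0.690 (unadjusted p = 0.000802, rank 13 of all genes). It was 0.51 between ArA replicate 1 and control replicate 2, and 0.40 among the other 4 libraries. ECH1 (ENSG00000104823) is at chr19:38815422-38832005, reverse strand. Of its 50-base stretches, 25.9% also occur in the transcript AC008982.1 (ENSG00000268083), which was listed at 0.210 to 0.770 TPM in ArA and 0.450 to 0.720 TPM in control libraries.

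DECR1, the mitochondrial dienoyl-CoA reductase, had 82.3, 111 and 111 TPM in ArA libraries, against 94.1, 78.2 and 88.8 TPM in control libraries. ArA replicate 1 lay below 2 of the 3 controls, so the groups overlapped (log2 fold change 0.21, SE 0.14, limma adjusted p = 0.999). The peroxisomal reductase DECR2 had 4.74, 7.51 and 7.32 TPM in ArA libraries and 5.24, 4.33 and 6.42 TPM in control libraries, with the same library low. ECI2, an enoyl-CoA isomerase of both organelles, had 43.0, 51.4 and 53.7 TPM in ArA libraries and 45.4, 45.5 and 46.4 TPM in control libraries. Its mitochondrial counterpart ECI1 had 31.1, 36.0 and 36.0 TPM in ArA libraries and 30.5, 37.2 and 29.2 TPM in control libraries, where the high control was replicate 2. In the 4 libraries without ArA replicate 1 and control replicate 2, all 5 auxiliary genes separated the groups, where 32.8% of all genes were separated as higher, and their log2 fold changes ran from 0.19 for ECI2 to 0.40 for ECH1. Between ArA replicate 1 and control replicate 2 alone, the log2 differences of ECI1 and ECI2 were -0.25 and -0.08, and that of DECR1 was 0.07. Levels of ECI2 are uncertain, since 3299 of its 4579 exonic bases overlap C6orf201 on the other strand.

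Electron transfer flavoprotein, made of ETFA and ETFB, takes electrons from the acyl-CoA dehydrogenases, and the separate enzyme ETFDH passes them to ubiquinone. Of these 3 genes 0 separated the groups, where 6.84% of all genes were separated as higher. The alpha subunit ETFA had 168, 198 and 207 TPM in ArA libraries, against 170, 144 and 172 TPM in control libraries. It overlapped through ArA replicate 1, with a log2 fold change of 0.24 (SE 0.11, limma adjusted p = 0.999, unadjusted p = 0.0757), and separated the groups after GC correction. The beta subunit ETFB averaged 64.3 ± 5.16 TPM in ArA and 64.0 ± 9.23 TPM in control libraries, and the dehydrogenase ETFDH 11.5 ± 1.73 and 9.73 ± 2.34 TPM (SD, n = 3 each). The log2 fold change of ETFB was 0.01 with a 95% interval of -0.28 to 0.31. That interval holds the value of ETFA.

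None of the peroxisomal core enzymes separated the groups, where 6.84% of all genes were separated as higher. HSD17B4, the hydratase and dehydrogenase for very long and branched chains, had 38.3, 49.8 and 58.6 TPM in ArA libraries, against 51.6, 36.9 and 53.0 TPM in control libraries. SCP2, a thiolase and sterol carrier, had 26.5, 42.1 and 48.6 TPM in ArA libraries, against 44.6, 25.9 and 42.2 TPM in control libraries. In both genes ArA replicate 1 and control replicate 2 were the low libraries, and the spread within a group was larger than the difference between the groups. Without these libraries the log2 fold change was 0.05 for HSD17B4 and 0.06 for SCP2. The straight-chain thiolase ACAA1 was steadier, at 48.6 ± 2.95 TPM in ArA and 47.2 ± 1.79 TPM in control libraries (SD, n = 3 each), and its exons overlap DLEC1 on the other strand. The branched-chain oxidases ACOX2 and ACOX3 averaged 45.3 ± 4.82 and 3.63 ± 0.509 TPM in ArA and 40.8 ± 3.59 and 3.50 ± 0.312 TPM in control libraries. EHHADH, the bifunctional enzyme known in rodent liver as a strong PPAR alpha target, had 2.26, 2.12 and 2.26 TPM in ArA libraries, against 2.21, 1.37 and 5.18 TPM in control libraries. Control replicate 3 was the high library, and the other 5 lay at 2.26 TPM or below.

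Genes for branched chains and alpha-oxidation, which removes a single carbon from phytanic acid, did not separate the groups either (6.84% of all genes higher). HACL1, the lyase of that pathway, had 19.1, 21.9 and 22.5 TPM in ArA libraries, against 20.8, 20.7 and 20.9 TPM in control libraries. PHYH, its hydroxylase, averaged 11.2 ± 1.63 TPM in ArA and 10.2 ± 0.867 TPM in control libraries (SD, n = 3 each). PECR, a peroxisomal enoyl-CoA reductase, averaged 5.19 ± 0.143 TPM in ArA and 5.27 ± 0.193 TPM in control libraries. The racemase AMACR, which turns branched chains into the form the oxidases accept, had 3.68, 6.49 and 6.28 TPM in ArA libraries and 4.96, 3.95 and 4.74 TPM in control libraries. AMACR shares 62.5% of its 50-base stretches with the read-through gene C1QTNF3-AMACR, and HACL1 exons overlap BTD on the other strand, so both levels are uncertain. ABCD3, which carries long and branched acyl-CoA into peroxisomes, had 27.0, 41.9 and 42.2 TPM in ArA libraries and 44.3, 26.2 and 42.4 TPM in control libraries, low in the same libraries as SCP2. Without ArA replicate 1 and control replicate 2 its log2 fold change was -0.04. PEX11A, which promotes peroxisome division, averaged 6.02 ± 0.817 TPM in ArA and 5.83 ± 0.761 TPM in control libraries. MLYCD, which clears malonyl-CoA, was listed at 0.150, 0.490 and 0.440 TPM in ArA and 0.260, 0.200 and 0.380 TPM in control libraries and was not tested.

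Thioesterases release free fatty acids from acyl-CoA, and of 6 members ACOT1 alone separated the groups (6.84% of all genes higher). ACOT1, the cytosolic form, had 3.49, 3.64 and 3.48 TPM in ArA libraries, against 2.90, 2.66 and 2.88 TPM in control libraries (log2 fold change 0.25, SE 0.13, limma adjusted p = 0.999). Its mitochondrial paralog ACOT2 had 17.2, 19.9 and 19.6 TPM in ArA libraries, against 14.5, 19.1 and 16.9 TPM in control libraries. The longest transcript of ACOT1 shares 54.6% of its 50-base stretches with ACOT2, so the split between the paralogs is uncertain. Summed, the pair had 20.7, 23.6 and 23.1 TPM in ArA libraries, against 17.4, 21.8 and 19.8 TPM in control libraries, which overlap. ACOT7, the most abundant thioesterase gene here, had 73.6, 74.3 and 69.3 TPM in ArA libraries, against 65.9, 80.3 and 71.8 TPM in control libraries. Its log2 fold change had a 95% interval of -0.23 to 0.23. The peroxisomal ACOT8, of whose 4213 exonic bases 3463 overlap SNX21 on the other strand, averaged 21.3 ± 2.75 TPM in ArA and 19.8 ± 1.72 TPM in control libraries, an uncertain level. The mitochondrial ACOT9 and ACOT13 averaged 48.8 ± 6.95 and 12.4 ± 2.48 TPM in ArA and 46.9 ± 3.55 and 10.5 ± 3.15 TPM in control libraries (SD, n = 3 each).

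**Figure D3:**
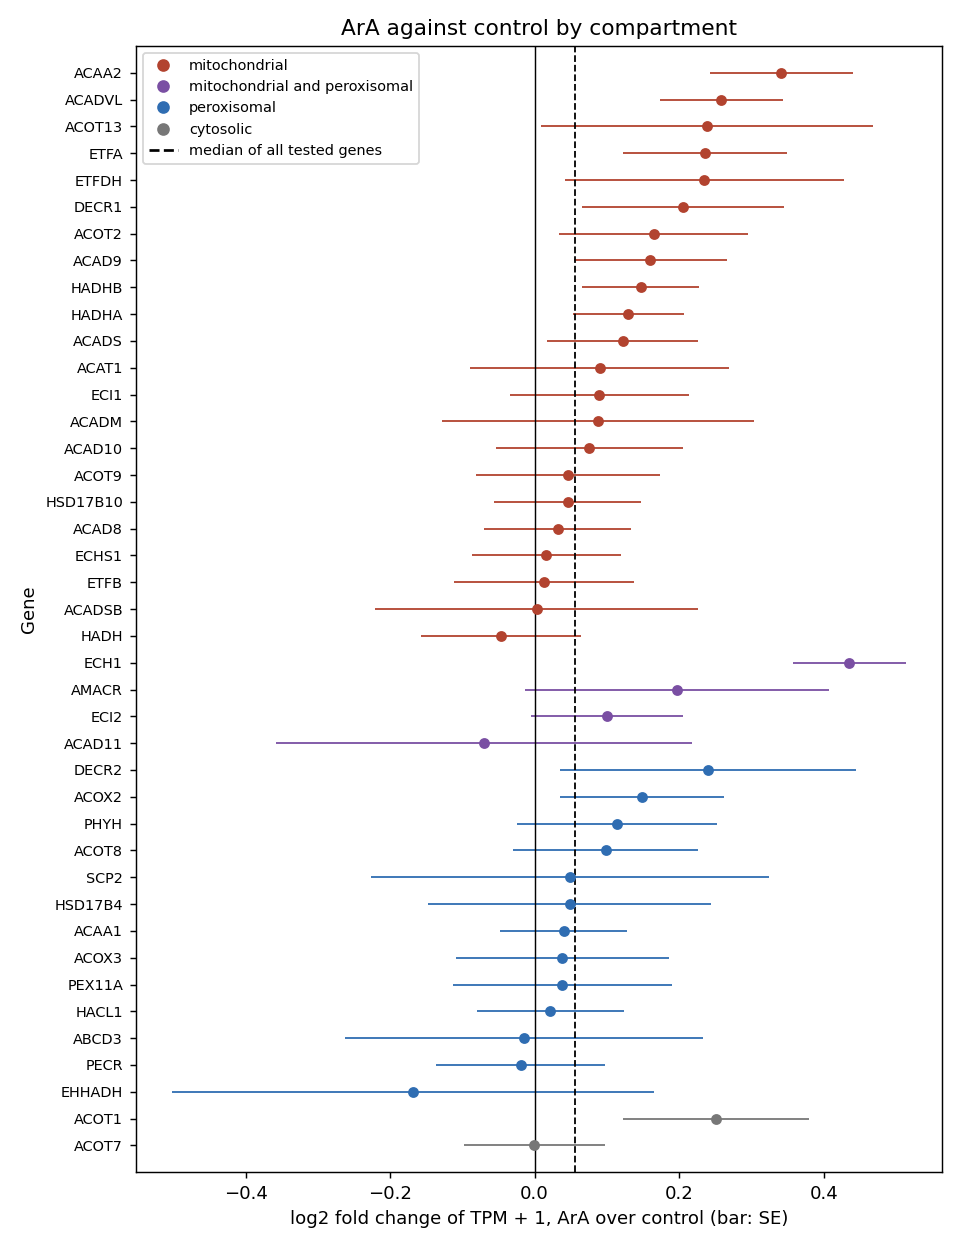
log2 fold change of each tested member on the log2(TPM + 1) scale, ArA over control, with its standard error from limma, coloured by compartment; the dashed line is the median of all tested genes (0.06). Of the mitochondrial members, 21 of 22 lie above 0, and of the peroxisomal members 10 of 13, with bars that mostly overlap. Of all tested genes, 68.9% lie above 0.

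Set side by side, mitochondrial members had a median log2 fold change of 0.11 and peroxisomal members 0.04, against 0.06 for all genes. The difference between the class medians, 0.07, was about the size of its spread between replicate libraries (SD 0.07), and single libraries moved it widely. It was 0.01 without ArA replicate 1 and 0.04 without control replicate 3, but 0.11 without control replicate 2 and 0.11 without ArA replicate 2. Positive values were found in 21 of 22 mitochondrial and 10 of 13 peroxisomal members under the authors' TPM, against 68.9% of all genes. After GC correction the mitochondrial median was 0.06 and the peroxisomal one -0.0014, against 0.0098 for all genes. Without ArA replicate 1 and control replicate 2 these were 0.13 and 0.07, against 0.06. The summed TPM of the mitochondrial members was 1306, 1443 and 1478 in ArA libraries, against 1247, 1244 and 1308 in control libraries. ArA replicate 1 lay just under control replicate 3, so these sums overlapped. The peroxisomal sum was 250.3, 308 and 330.5 TPM in ArA libraries, against 295, 252 and 304 TPM in control libraries. Over all 41 members the sum averaged 1975 ± 132 TPM in ArA and 1780.1 ± 58.1 TPM in control libraries (SD, n = 3 each), 1.11 times as much. That is 0.15 on the log2 scale, and it was 0.09 with median of ratios, 0.08 with quantile normalization and 0.08 without mitochondrially encoded genes. ACADVL made up 24.5% of that difference, ECH1 17.9% and ETFA 15.0%. The auxiliary enzymes summed to 302, 333 and 335 TPM in ArA libraries, against 272, 264 and 268 TPM in control libraries, and did not overlap. ECH1 accounts for more than any other of these 5 genes, as its mean differed by 34.8 TPM and that of DECR1, the next, by 14.1 TPM. ECH1 was also the only auxiliary gene whose own groups did not overlap. In each of the others ArA replicate 1 lay below at least 1 control, so the separated sum is no trait of the class without ECH1.

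ArA replicate 1 and control replicate 2 also differed from the other 4 libraries in the members. The plot of library difference against GC content shows that 10 members lay more than 0.4 lower on the log2 scale in these libraries, among them SCP2, ABCD3, ACAD11, ACADM, HSD17B4 and ACADSB. Another 11 members were higher there, led by ETFB, HSD17B10 and ACOT7. The median of this difference was -0.09 over the members and -0.14 over all tested genes, so it was not particular to the members. Shares of all genes past these limits were not counted. Of 17 members whose longest transcript had a GC content under 45%, 13 were lower by more than 0.2, and of 10 members at 55% or more, 7 were higher. Those shares were not counted over all genes either. Across all genes the deviations of ArA replicate 1 and control replicate 2 also correlated with GC content, at Pearson r = 0.41 and 0.45. Over the 41 members, which share the same libraries, Pearson r between the difference and GC content was 0.65. The part of GC content in the levels was not tested member by member.

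**Figure D4:**
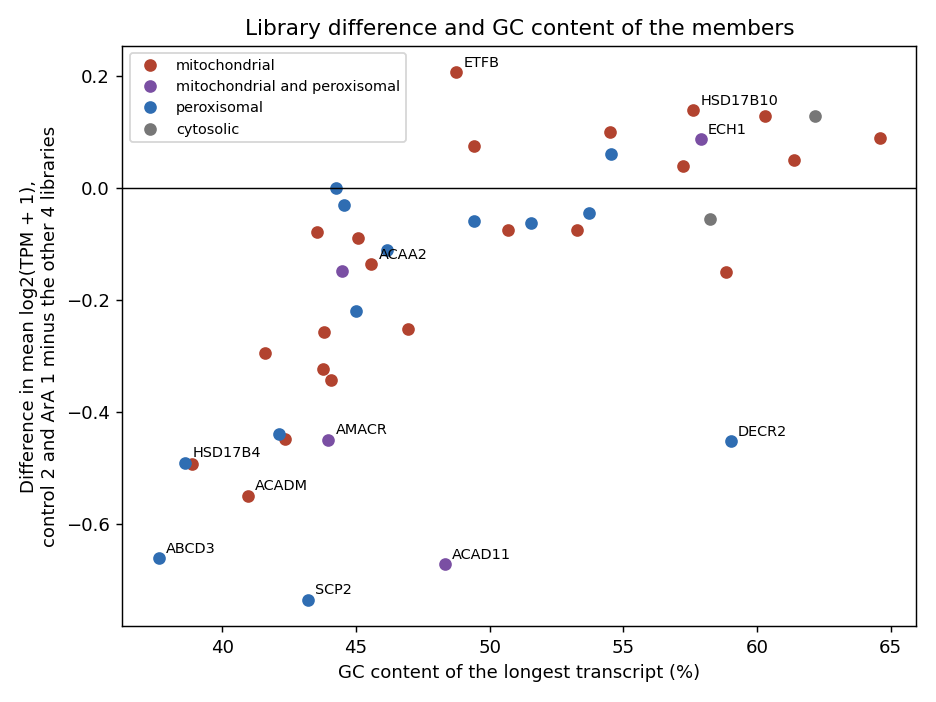
Difference in mean log2(TPM + 1) between ArA 1 with control 2 and the other 4 libraries for 41 members, against the GC content of each gene's longest GENCODE transcript in percent, coloured by compartment. AT-rich members such as SCP2 and ABCD3 lie lowest, GC-rich members such as ECH1 and HSD17B10 above 0, and Pearson r is 0.65.

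Both library sets hold ArA and control samples, so each gives its own contrast. Among the 4 other libraries 35 of 41 members were positive, against 65.8% of all genes, and 22 separated the groups as higher and 1 as lower, against 32.8 and 11.6% of all genes. The number with an unadjusted limma p under 0.05 was 10 higher and 0 lower, against 7.39 and 2.26% of all genes: ECH1, ACAA2, ACADVL, DECR1, ETFA, ECI1, AMACR, ACOT2, ECI2 and ACOT8. These 4 libraries were set apart after the deviations of the others were seen, which removes scatter within groups and lowers p by construction. In all 6 libraries 2.28% of all genes were higher at that p. The p-values of the 4 libraries are therefore descriptive only. Past an adjusted p of 0.05 were 0 members, against 0.0385% of all genes higher and 0.0539% lower. After GC correction in all 6 libraries, 0 members passed an adjusted p of 0.05, against 0.0308% of all genes higher and 0.00769% lower. At an unadjusted limma p under 0.05, ECH1, ACAA2 and ETFA were then higher and 0 members lower, against 2.35 and 1.76% of all genes. GC correction left 6 members separated as higher and 0 as lower, against 4.96 and 3.98% of all genes. Between ArA replicate 1 and control replicate 2, 1 library each and so with no test, 23 of 41 members were positive (56.1%), against 57.8% of all genes. Both contrasts were positive in 18 members, or 43.9%, against 37.1% of all genes. By compartment these were 12 of 22 mitochondrial and 4 of 13 peroxisomal members.

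Genes around the pathway were read from 4 lists. Over all tested genes, 2.28% were higher and 0.508% lower at an unadjusted limma p under 0.05. Groups were separated as higher in 6.84% and as lower in 1.21% of all genes. The median log2 fold change was 0.06, and 68.9% of all genes were positive. In carnitine shuttle and acyl-CoA entry, 5 of 13 tested genes had an unadjusted limma p under 0.05 and were higher, 0 were lower, 0 passed over all genes, and 6 separated the groups, with a median log2 fold change of 0.24. CPT1A, the entry gate of mitochondrial oxidation, had 58.6, 54.2 and 52.0 TPM in ArA libraries, against 40.85, 45.02 and 40.58 TPM in control libraries. ACSL5, which activates long chains to acyl-CoA, had 156, 149 and 154 TPM in ArA libraries, against 136, 121 and 118 TPM in control libraries. CPT1C, a form of low activity known from neurons, had 26.2, 27.9 and 27.4 TPM in ArA libraries, against 21.4, 24.4 and 21.2 TPM in control libraries. The groups did not overlap in any of these 3 genes, with log2 fold changes of 0.37 (SE 0.09), 0.29 (SE 0.08) and 0.27 (SE 0.10) and a limma adjusted p of 0.999 each. SLC25A20, which carries acylcarnitine across the inner membrane, had 25.62, 29 and 27.75 TPM in ArA libraries, against 20.8, 22.4 and 20.6 TPM in control libraries, again with no overlap. In peroxisome biogenesis, 0 of 19 tested genes had an unadjusted limma p under 0.05, 0 separated the groups, 11 were positive, and the median was 0.04. In branched-chain amino acid breakdown, which shares the matrix and several enzyme families with beta-oxidation, 0 of 21 genes had an unadjusted limma p under 0.05, 1 separated the groups as higher, and the median was 0.08. In PPAR receptors and partners, 0 of 12 had an unadjusted limma p under 0.05, 0 separated the groups, and the median was 0.05. For scale, the fatty acid response genes PLIN2 and ANGPTL4, the 2 genes higher past the adjusted threshold, had log2 fold changes of 0.91 (SE 0.08) and 1.63 (SE 0.10), against 0.44 for ECH1.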

How the data were processed

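RNA was sequenced from 6 libraries of MDA-MB-231 cells, made from total RNA with a TruSeq kit per the labels' protocols. The authors deposited TPM per gene; per the submitters' processing notes the tools were HISAT2, StringTie and RSEM and the build hg38, with neither version nor order. TPM holds no read totals, so depth is unknown and no counting interval can be given. Columns were matched to samples by name. Of 63291 lines, 50 name no gene and were left out.

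The 12999 genes averaging 1 TPM or more were analysed as log2(TPM + 1), which understates changes of low genes. The model was limma (version 3.58.1, R version 4.3.3; eBayes with trend, group as the only term, 2-sided, Benjamini-Hochberg over all tested genes, threshold 0.05). The fit was tested on simulated data. Classes are by known location, and 5 enzymes of both organelles were kept apart. GC content, coordinates and shared 50-base stretches came from GENCODE v29 on hg38 (longest transcript; GC known for 97.2% of tested genes), promoter windows from RefSeq. All 42 members are named, with each library's value where groups did not overlap, the unadjusted p was under 0.05 or the level was the highest of a role; further members shown by library (ACADM, the other auxiliary genes, SCP2, EHHADH, AMACR, MLYCD, ACOT2) were chosen after their values were seen. Up to 4 genes per pathway list were named by p. Members and lists were chosen with earlier results of these data known.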

Additional observations from a re-analysis of the deposited data

How the results depend on the processing

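Under 20 alternatives, 0 members passed an adjusted p of 0.05 except with array weights, where 2 did (ECH1 and ACAA2, limma adjusted p = 0.0167 and 0.0341, log2 fold changes 0.40 and 0.38) among 169 higher and 45 lower genes; their adjusted p otherwise reached 1. Of 41 members, 19 kept a positive log2 fold change under each alternative run, a share that was not counted over all genes. Members separated as higher numbered 5 with median of ratios (2.93% of all genes), 3 with quantile normalization (3.02%), 5 without mitochondrially encoded genes (3.36%) and 22 without control replicate 2 and ArA replicate 1 (32.8%; 1 lower), and 8 to 18 (9.44 to 21.3%; 0 to 1 lower) when single libraries were left out, the highest without ArA replicate 1. Fewer libraries separate more genes by construction. The mitochondrial median was 0.0497 with median of ratios, 0.0456 without mitochondrially encoded genes, and 0.0751 to 0.177 with single libraries left out; the peroxisomal median then ran from -0.0227 to 0.169 and the auxiliary one from 0.132 to 0.347, each highest without ArA replicate 1. Less the median of all genes, the mitochondrial median was 0.0466 to 0.0496 under the 4 scalings and 0.0383 to 0.117 with single libraries left out.

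Several signs turned. HACL1 was -0.0355, -0.0332 and -0.0414 under median of ratios, quantile normalization and rescaling without mitochondrially encoded genes, and -0.0217 after GC correction with or without the replicate block; HSD17B4 was -0.0101, -0.0156 and -0.0158 under those scalings and -0.0408 with array weights; ACOT7 was 0.0502 with array weights and 0.0608 without control replicate 2 and ArA replicate 1. With single libraries left out, ABCD3 ran from -0.249 to 0.192, ACOT7 from -0.0675 to 0.0731, HACL1 from -0.0227 to 0.0911 and HSD17B4 from -0.116 to 0.211. Of 24 further members, 18 changed sign in at least 1 alternative, among them ACOT13 (-0.00874 to 0.438) and EHHADH (-0.733 to 0.22). The cause was not tested.

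Same-numbered replicates did not deviate together (r = -0.16, -0.28 and 0.11 across genes), so the numbers were not taken to pair samples. With the replicate block 0 members and 0 genes passed limma, with 173 higher and 59 lower at an unadjusted p under 0.05. Depth is unknown, so what it limits cannot be given. Summed TPM has no value under other pseudocounts, fits, weights, the block or GC correction.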
